A study of Mus musculus with 12 samples.

Results

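Interferon-stimulated genes are the genes a cell switches on when an interferon binds its receptor, and 36 of them were followed here in the brain and liver of aged mice. They were taken by symbol from the table of read counts, and all 36 were found among its 25239 gene rows. The study asked what periodic heat does to the aged brain and liver. Male wild type (WT) C57BL6/J mice of 24 months were kept at 40 ± 0.5 °C and a relative humidity of 60% ± 5% for 3 hours a day on 15 days (heat stress group), and control mice of the same strain, genotype and age were not heated. Each tissue was represented by 3 libraries from control mice and 3 from heat stress mice, 12 in all. The numbers 1 to 3 in the labels name a library within its group, and no source used here states which brain and liver library share a mouse. By the group sizes in the methods the same mice would have given both tissues, and the 12 libraries would then come from 6 mice. The fits of all 12 treated them as independent.

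Interferons are secreted signals of antiviral defence. Type I interferons bind the receptor pair IFNAR1 and IFNAR2, type II interferon binds IFNGR1 and IFNGR2, and both act through JAK kinases and STAT transcription factors. Downstream of type I interferon the STAT2 and IRF9 proteins take part in a complex that binds the interferon-stimulated response element (ISRE) in the promoters of many of these genes. The gamma-activated sequence (GAS) is the promoter element of the response to type II interferon. The 36 genes hold transcription factors that relay or amplify the signal, sensors of foreign nucleic acid, and effectors that block viral translation, replication, assembly or release. Liver and brain both keep a basal level of many of them in the absence of infection.

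The promoters of the 2 members with the smallest unadjusted p in each tissue are shown first, among those with a sequence. Sequences are from RefSeq on GRCm38.p6 (mm10), where a promoter window of 300 bases, 250 before and 50 after the start of transcription, was given for 26 of the 36 members. An ISRE core was searched as GAAANNGAAA on both strands, so that it reads TTTCNNTTTC where it lies on the other strand. Overlapping matches were counted separately. These were Irf7 and Oasl2 in liver and Ifit1 and Ifit3 in brain, higher with heat at an unadjusted p under 0.05 in edgeR. None of them had an adjusted p under 0.05 in that test. Below are the stretches upstream of these genes, 5′ to 3′ on the gene's strand, cut before the first annotated exon base, with each ISRE core in capitals.
Irf7, chr7:141266482-141266674, minus strand: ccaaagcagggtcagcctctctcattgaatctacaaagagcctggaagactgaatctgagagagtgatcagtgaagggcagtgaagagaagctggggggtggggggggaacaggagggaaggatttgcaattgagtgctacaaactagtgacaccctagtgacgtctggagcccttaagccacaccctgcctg
Oasl2, chr5:114896684-114896933, plus strand: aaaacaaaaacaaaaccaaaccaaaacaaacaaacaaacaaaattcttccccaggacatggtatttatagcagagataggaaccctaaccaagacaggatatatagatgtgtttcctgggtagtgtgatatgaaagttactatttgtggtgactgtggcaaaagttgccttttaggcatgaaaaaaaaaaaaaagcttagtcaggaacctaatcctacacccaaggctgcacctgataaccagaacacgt
Ifit1, chr19:34640639-34640870, plus strand: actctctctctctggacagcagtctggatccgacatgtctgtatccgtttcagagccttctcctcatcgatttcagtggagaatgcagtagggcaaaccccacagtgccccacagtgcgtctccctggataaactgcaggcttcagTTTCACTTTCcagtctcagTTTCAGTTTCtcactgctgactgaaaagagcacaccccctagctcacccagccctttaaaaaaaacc
Ifit3, chr19:34583279-34583528, plus strand: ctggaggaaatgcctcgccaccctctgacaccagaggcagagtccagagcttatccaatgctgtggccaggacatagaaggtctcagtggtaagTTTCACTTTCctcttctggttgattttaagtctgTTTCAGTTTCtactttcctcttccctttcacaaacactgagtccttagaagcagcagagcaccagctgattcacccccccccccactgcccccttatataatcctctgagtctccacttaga

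Ifit1 held 2 ISRE cores, with first bases at -104 and -85 from the start, and Ifit3 held 2, at -156 and -122, while the windows of Irf7 and Oasl2 held none. Xaf1 and Gbp2, with an unadjusted p under 0.05 in liver in edgeR, held none and 1. Bst2, whose groups did not overlap in liver, held 2, and Isg15, whose groups did not overlap in brain, held 3. None of these had an adjusted p under 0.05 in edgeR. Of the 26 members with a window, 16 (61.5%) held at least 1 ISRE core, against 1079 of all 27025 genes with such a window (3.99%). The GAS letters TTCNNNGAA, which read the same on either strand, were found in 8 of the 26 (30.8%) against 2582 of all genes (9.55%). A match is a description of letters, and no match says only that these letters are not in this window. Single sites of other members are given as examples, with 10 bases on either side and the motif in capitals. The search fixed every letter of a motif except those at N, so the likeness of the cores is no result.
Isg15, middle of 3 overlapping cores, chr4:156200871-156200900, minus strand: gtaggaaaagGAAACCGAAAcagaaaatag
Gbp2, chr3:142620594-142620623, plus strand: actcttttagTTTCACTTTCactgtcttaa
Gbp7, chr3:142530273-142530302, plus strand: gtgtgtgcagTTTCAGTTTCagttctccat
Rsad2, chr12:26456553-26456582, minus strand: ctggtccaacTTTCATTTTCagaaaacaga
Stat2, chr10:128270266-128270295, plus strand: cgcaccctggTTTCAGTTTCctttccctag
Igtp, chr11:58199512-58199541, plus strand: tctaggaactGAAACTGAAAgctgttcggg
Irgm2, chr11:58214903-58214932, plus strand: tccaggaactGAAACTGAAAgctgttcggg
Irf1, GAS, chr11:53769914-53769942, plus strand: acagcctgatTTCCCCGAAatgatgaggc

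Each library held between 10466198 and 15609040 counts, and a count of 0 in the smallest of them allows a level of up to 3 counts, for counting error only. Values are normalized CPM (the counts-per-million scale, after TMM factors within a tissue). Hepatocyte markers (Alb, Apoa1 and 6 others) summed to between 77294 and 129156 in every liver library, and neuronal markers to between 6159 and 8520 in every brain library. The libraries liver control 1 and liver heat stress 2 stood apart, with skeletal muscle transcripts summing to 533 and 2822 against 1.40 to 8.83 in the other 4. Liver control 1 also held more neural transcripts, with a neuronal marker sum of 33.5 against 13.5 to 18.5 in the other livers and an oligodendrocyte marker sum of 48.9 against 14.4 to 22.3. The count columns of liver control 2, heat stress 1 and heat stress 3 are marked "2nd", which no source used here explains. No pair of libraries within a group was identical. In bulk tissue, fewer cells of a type and less RNA per cell cannot be told apart.

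In control mice, the interferon-stimulated genes were far lower in brain than in liver. Of the 36 members, 33 were lower in brain and 1 was higher at an adjusted p under 0.05 (edgeR's quasi-likelihood test, p-values adjusted by the Benjamini-Hochberg method over all genes tested), where 36.1% of all genes tested were called lower and 44.2% higher. The median log2 difference, brain minus liver, was -2.76 over the members and 0.24 over all genes. Iigp1, an immunity-related GTPase that attacks the vacuoles of intracellular parasites, differed most, with a log2 difference of -7.43 ± 0.39 (SE, adjusted p = 6.66e-10). Bst2 (tetherin, which holds budding virus at the cell surface) followed Oasl1 (-5.87 ± 0.64) with -5.81 ± 0.28, and Irf7, the transcription factor that amplifies type I interferon production, stood at -3.96 ± 0.22 (adjusted p = 1.17e-09). Ifit2, a member of the family that binds viral RNA and blocks its translation, was the one called higher in brain, by 1.87 ± 0.28 (adjusted p = 2.88e-05). Its neighbours Ifit1 and Ifit3 were lower in brain, by log2 differences of -1.85 ± 0.37 and -0.79 ± 0.30. Oasl2 (0.23 ± 0.32) and Xaf1 (-0.45 ± 0.27) were not called. The call for Ifit3 (adjusted p = 0.0275) was lost without brain control 1, brain control 3, liver control 2 or liver control 3, where it ranged up to 0.0728.

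To compare levels between genes and tissues, counts were scaled by TMM factors over all 12 libraries and divided by exon length, so these levels are not on the within-tissue scale used elsewhere. In control liver Bst2 led with 283 ± 13.6 CPM per kilobase on this 12-library scale (SD, n = 3), followed by Ifi27 with 96.0 ± 16.0 and Iigp1 with 58.4 ± 12.7. In control brain Ifi27, an interferon-induced protein of internal membranes, led with 20.8 ± 0.545. Next in brain came Lgals3bp, a secreted galectin-binding protein, at 5.45 ± 1.17, Bst2 at 5.05 ± 0.725 and Ifit3 at 4.64 ± 0.885, and these 3 levels overlapped within their SDs. Mx1 was lowest per kilobase in liver (0.319 ± 0.103) and Ifi44 in brain (0.0627 ± 0.0413). Ifit2 ranked 5 of the 36 in brain and 33 in liver, while Iigp1 ranked 28 in brain and 3 in liver.

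**Figure D1:**
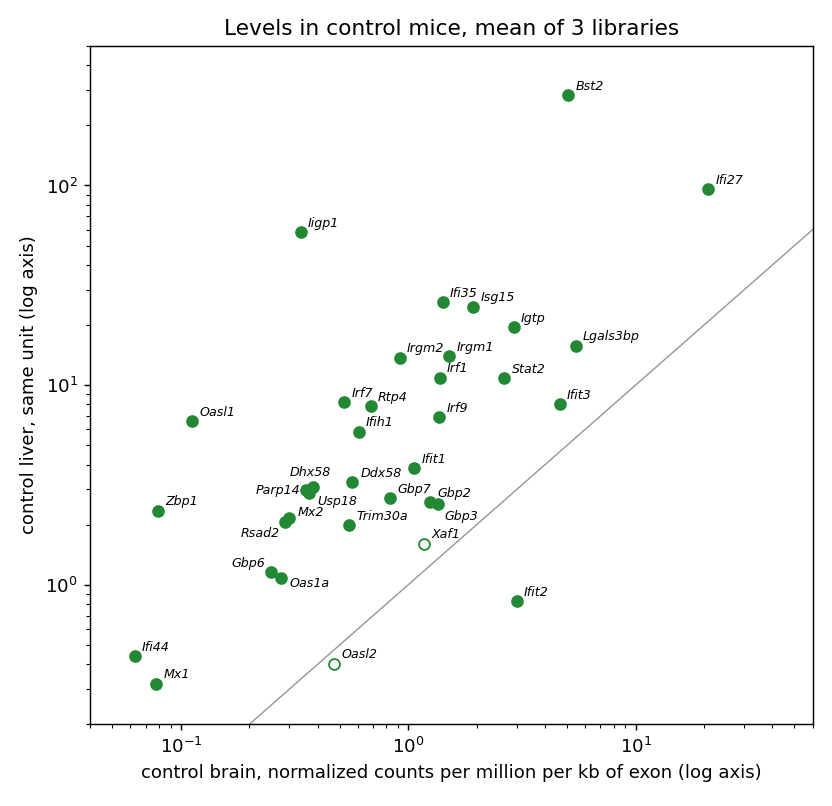
Mean level of each of the 36 members in 3 control brain libraries (x axis) and 3 control liver libraries (y axis), in CPM per kilobase of exon, scaled over all 12 libraries, on log axes. The line marks equal levels, open circles are the 2 members that were not called, and Ifit2 and Oasl2 are the members that lie below the line.

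In liver, the heat stress group stood higher than control for most interferon-stimulated genes, but no member passed the adjusted test. All 36 members were tested among 12296 genes, and 0 had an adjusted p under 0.05 by edgeR's quasi-likelihood test, as had 0% of all genes. At an unadjusted p under 0.05, 6 members were higher (16.7%) and 0 lower, where 2.97% of all genes tested were higher and 2.87% lower. These 6 were Irf7, Oasl2, Ifi27, Usp18, Gbp2 and Xaf1. DESeq2 called 1 member at an adjusted p under 0.05 (Irf7), among 63 of 17860 genes, and had 6 higher and 0 lower at an unadjusted p under 0.05, where 1.6% of all genes were higher. The log2 fold change was above 0 for 31 of the 36 members (86.1%, against 51.8% of all genes), and its median was 0.32 over the members and 0.01 over all genes. It ranged from -0.44 for Oasl1 to 1.14 for Irf7.

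Irf7 (chr7:141262706-141266481, minus strand) had 23.0, 21.2 and 18.5 normalized CPM in the 3 control livers and 56.5, 39.9 and 41.9 in the 3 heated livers. Every heated liver lay above every control liver, and the gap between the groups was wider than the spread within either. The log2 fold change was 1.14 ± 0.19 (SE), with an unadjusted p of 1.58e-04 and an adjusted p of 0.132 by edgeR's quasi-likelihood test. The adjusted p fell under 0.05 in 5 of the 15 other settings, at 3.01e-04 with DESeq2, 0.0448 with all 12 libraries in a single fit, 0.0363 without liver control 1, 0.00279 without both libraries with muscle transcripts and 0.00667 with the muscle score as a covariate. In the remaining settings it ranged up to 0.882, the value without liver heat stress 3, while the log2 fold change stayed between 0.95 and 1.30 in every setting. Exons of Irf7 share bases with Phrf1 on the opposite strand, and whether the counting used strand is not given in the sources used here. Phrf1 itself had a log2 fold change of -0.10 ± 0.22 in liver.

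The other transcription factors of the pathway did not stand apart in the same way. Irf1, which responds mainly to type II interferon, had 29.3, 31.6 and 27.0 in control liver and 34.6, 33.0 and 24.5 in heated liver, a log2 fold change of 0.07 ± 0.18. Irf9 had 24.9, 25.4 and 25.6 in control liver and 31.9, 32.6 and 20.0 in heated liver, a log2 fold change of 0.16 ± 0.21, and it shares exon bases with Rnf31 on the same strand. For both genes heated livers 1 and 2 lay above the controls and heated liver 3 below them. Stat2 had 36.9, 48.6 and 45.8 in control liver and 37.6, 37.2 and 29.3 in heated liver, a log2 fold change of -0.33 ± 0.18 (unadjusted p = 0.0971 and adjusted p = 0.914 in edgeR). Its log2 fold change was -0.45 without liver control 1 (unadjusted p = 0.0247 and adjusted p = 0.329 in edgeR). Without both libraries with muscle transcripts it was -0.51 (unadjusted p = 0.0176 and adjusted p = 0.337 in edgeR). Heated livers 1 and 2 lay at the lower end of the control range for Stat2 and heated liver 3 below it.

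Among the effectors, Oasl2 was the only member of the oligoadenylate synthetase family whose groups did not overlap in liver. Oasl2, an OAS-like protein (chr5:114896936-114912234, plus strand), had 1.87, 1.55 and 1.77 in control liver and 3.13, 3.48 and 3.15 in heated liver. Its 3 heated livers lay close together and all above the controls, with a log2 fold change of 0.91 ± 0.27 (unadjusted p = 0.00811 and adjusted p = 0.604 in edgeR), from 19 to 50 counts a library. Oasl1, known in mice as a repressor of Irf7 translation, had 19.2, 7.83 and 6.99 in control liver and 8.79, 11.2 and 5.21 in heated liver. Control liver 1 was highest there, and the groups overlapped. Oas1a, which makes the oligoadenylates that activate RNase L, was measured with 13 to 45 counts a library, and its log2 fold change was 0.51 ± 0.50.

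Ifi27 (chr12:103434211-103440239, plus strand) had 105, 93.3 and 86.8 in control liver and 186, 131 and 125 in heated liver. The groups did not overlap, and the log2 fold change was 0.63 ± 0.20 (unadjusted p = 0.0110 and adjusted p = 0.656 in edgeR), and 0.41 without heated liver 1 (unadjusted p = 0.0746 in edgeR). Bst2 was almost level within each group, with 169, 179 and 173 in control liver and 204, 201 and 201 in heated liver. Its log2 fold change was 0.22 ± 0.16. Mx1, a dynamin-like GTPase, had 0.516, 1.14 and 0.839 in control liver and 1.94, 1.32 and 1.34 in heated liver, from 8 to 26 counts a library. Irf7, Oasl2, Ifi27, Bst2 and Mx1 were the 5 members (13.9%) whose heated livers all lay above all control livers, where 5.38% of all genes did. In 0 members did all heated livers lie below all controls, an order found in 705 of the 12296 genes.

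For Usp18, Gbp2 and Xaf1 heated liver 3 lay within the control range. Usp18, the protease that removes ISG15 from proteins and dampens the type I receptor (chr6:121245906-121270917, plus strand), had 6.33, 5.22 and 4.75 in control liver and 11.1, 11.6 and 5.84 in heated liver, a log2 fold change of 0.80 ± 0.28 (unadjusted p = 0.0184 in edgeR). Gbp2, a guanylate-binding protein that coats pathogen vacuoles (chr3:142620602-142638008, plus strand), had 3.61, 4.32 and 5.41 against 10.5, 7.81 and 4.89, a log2 fold change of 0.81 ± 0.30 (unadjusted p = 0.0246 in edgeR). Xaf1, a partner of the apoptosis inhibitor XIAP (chr11:72301629-72313733, plus strand), had 4.26, 5.63 and 5.50 against 13.0, 8.36 and 5.60, a log2 fold change of 0.81 ± 0.31 (unadjusted p = 0.0251 in edgeR). In all 3 genes heated livers 1 and 2 lay above every control. Without heated liver 1 the log2 fold change was 0.43 for Xaf1, 0.50 for Gbp2 and 0.66 for Usp18 (unadjusted p = 0.163, 0.138 and 0.0689 in edgeR). The unadjusted p also passed 0.05 without liver control 1 or 3 for Xaf1, without liver control 1 or 2 for Gbp2, and without liver control 3 or heated liver 2 for Usp18, and lay between 0.0516 and 0.0727 in edgeR there.

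**Figure D2:**
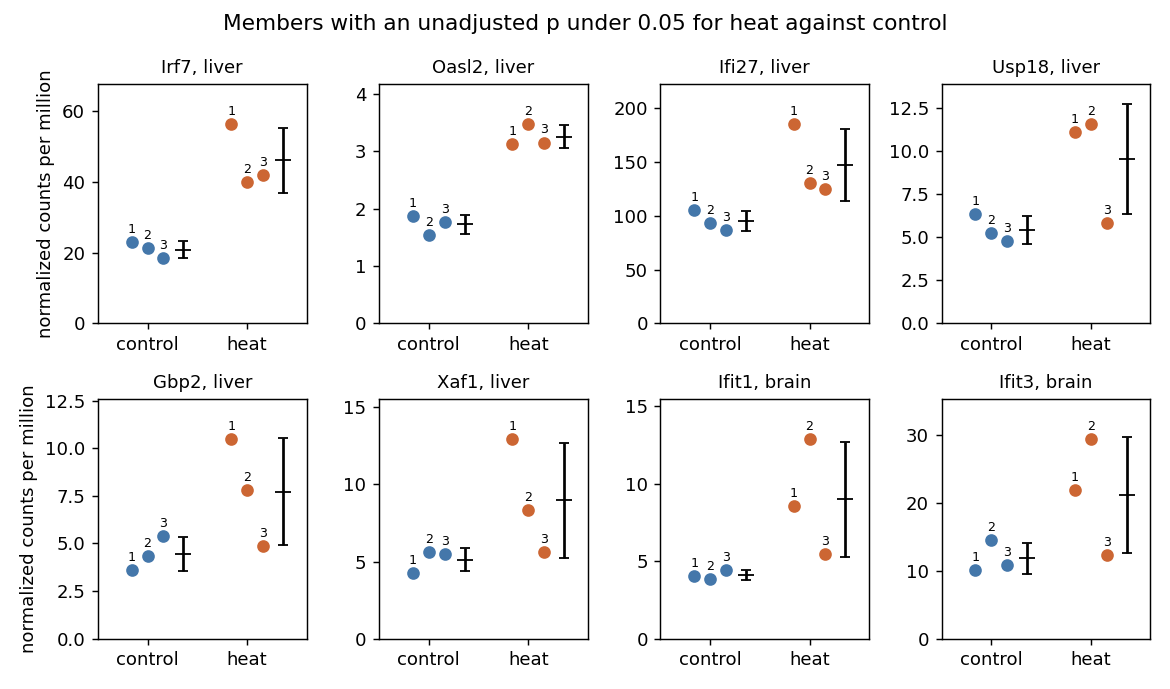
Normalized CPM in each control (blue) and heat stress (orange) library for the 6 members in liver and 2 in brain with an unadjusted p under 0.05, with replicate numbers beside the points and the mean ± SD (n = 3) in black. Heated liver 3 lies above all controls for Irf7, Oasl2 and Ifi27 and within their range for Usp18, Gbp2 and Xaf1.

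The remaining families in liver were given by range. All 4 guanylate-binding proteins had log2 fold changes above 0, from 0.28 for Gbp7 to 0.81 for Gbp2, with Gbp6 at 0.76 ± 0.38. The 3 IFIT genes lay between 0.33 and 0.50, and none of the 3 had an unadjusted p under 0.05. Of the immunity-related GTPases, Igtp (0.45), Iigp1 (0.31) and Irgm2 (0.25) lay above 0 and Irgm1, which regulates the others, at -0.07. Igtp and Irgm2 share exon bases on the same strand, so reads of this pair may have been split or dropped in counting. The sensors of viral RNA Ifih1 (MDA5), Ddx58 (RIG-I) and Dhx58 (LGP2) and the nucleic acid sensor Zbp1 lay between 0.13 and 0.28. Isg15, the ubiquitin-like modifier, had 11.5, 15.2 and 11.4 in control liver and 17.5, 11.5 and 8.44 in heated liver, a log2 fold change of -0.02 ± 0.27. Rsad2 (viperin, 0.04), Ifi35 (-0.01) and Trim30a (0.01) were the others within 0.05 of 0. Mx2 (0.14), Rtp4 (0.34), Ifi44 (0.40), Parp14 (0.39) and Lgals3bp (0.33) were the rest, each with overlapping groups.

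**Figure D3:**
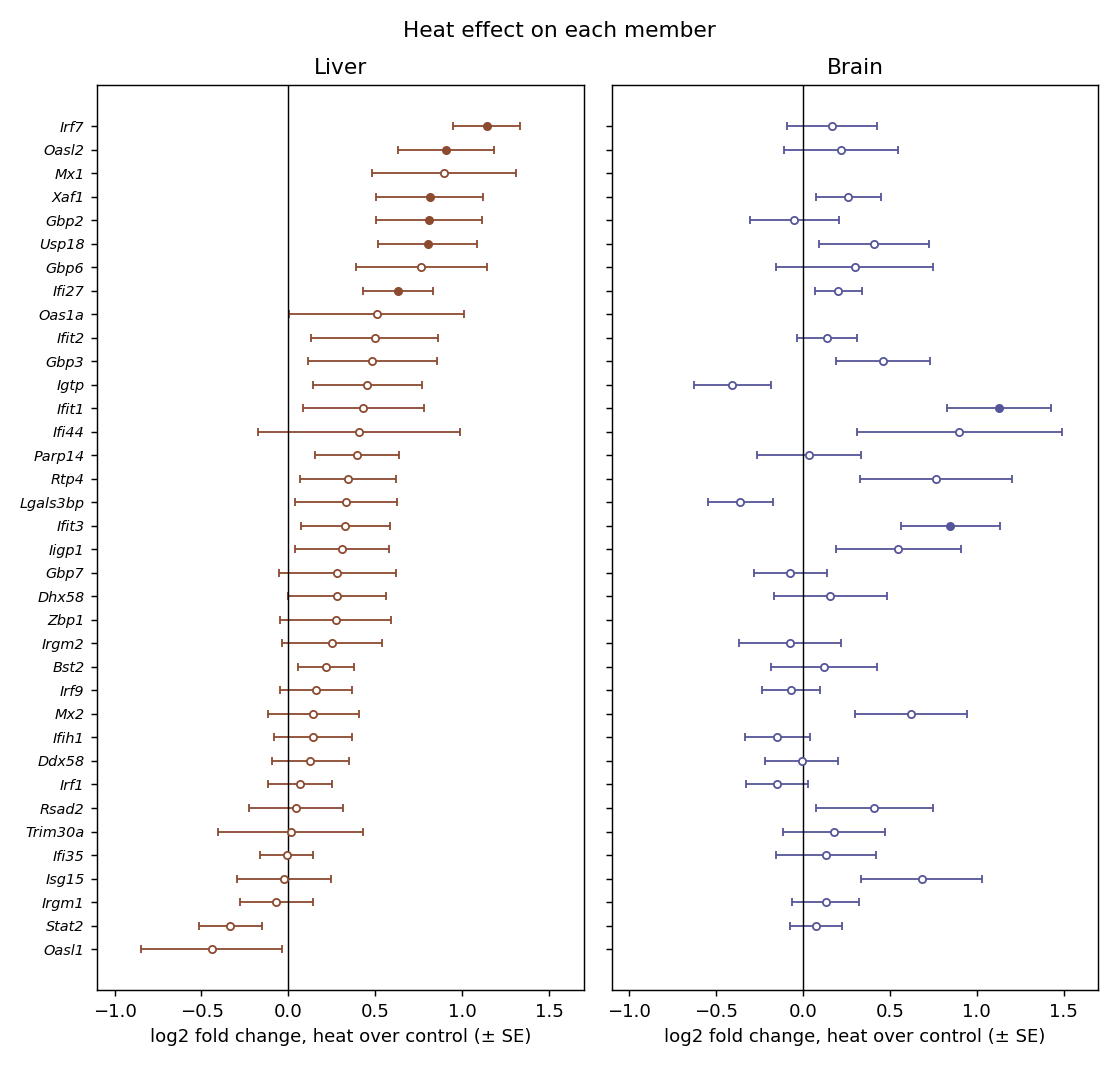
Log2 fold change of heat stress over control with its SE for each member in liver (left, 36 members) and brain (right, 32 members), sorted by the liver value. Filled points have an unadjusted p under 0.05, and none has an adjusted p under 0.05.

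Library by library, heated liver 3 differed from heated livers 1 and 2. It was the lowest of the 3 heated livers for 30 of the 36 members, where it was the lowest for 29.7% of all genes, and the lowest of all 6 livers for 17 members (16.1% of all genes). Heated liver 1 was the highest of all 6 for 22 of the 36 members, where it was the highest for 13.4% of all genes, and heated liver 3 for none. The median deviation of the members from the control mean, on the log2 scale with 0.5 added to each value, was 0.59, 0.40 and -0.25 in heated livers 1, 2 and 3 and -0.12, 0.01 and 0.04 in the controls. Over all genes the same medians lay between -0.01 and 0.02 in every liver library. Without heated liver 3, 13 members were higher at an unadjusted p under 0.05, where 1.78% of all genes were, and the median log2 fold change was 0.54. Without heated liver 1, 2 members were higher, where 2.70% of all genes were, and the median was 0.08.

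**Figure D4:**
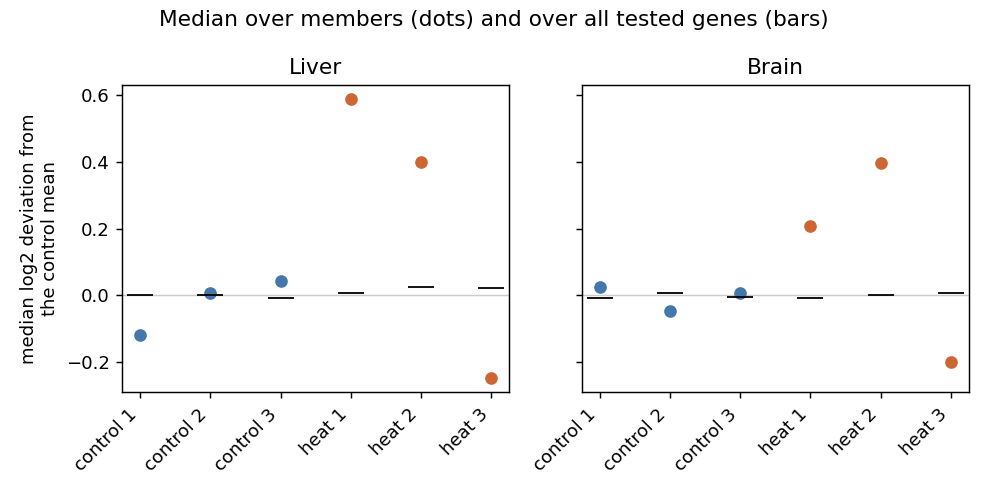
Median log2 deviation from the control mean over the tested members (dots) and over all tested genes (black bars) in each liver and brain library, with control in blue and heat stress in orange. Heat stress libraries 1 and 2 lie above the controls in both tissues, and heat stress library 3 lies below them in both.

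Of the 10 T cell and NK cell markers tested, 10 had a log2 fold change above 0 (51.8% of all genes did) and 5 were higher at an unadjusted p under 0.05 (against 2.97% of all genes), and the list of 15 summed to 5.23, 9.46 and 11.1 normalized CPM in control liver and 31.0, 17.1 and 20.0 in heated liver. These sums did not overlap, and they were highest in heated liver 1, where most members were highest too. Markers of macrophages and Kupffer cells summed to 216, 289 and 338 in control liver and to 479, 310 and 282 in heated liver, with the highest sum again in heated liver 1 and heated livers 2 and 3 inside the control range. Of the 15 macrophage markers tested 15 had a log2 fold change above 0 and 2 were higher at an unadjusted p under 0.05 (13.3%, against the same 2.97%). B and plasma cell markers summed to between 9.68 and 23.2 in control and between 15.1 and 31.9 in heated liver. Endothelial markers summed to 107, 115 and 126 in control and to 133, 143 and 129 in heated liver, without overlap. Of the 7 tested, 6 had a log2 fold change above 0 and 0 were higher at an unadjusted p under 0.05 (against 2.97% of all genes). None of these lists had a gene at 0 in all 6 livers, and the part of these cells in the values of the interferon-stimulated genes was not tested. Without both libraries with muscle transcripts, 6 members were higher at an unadjusted p under 0.05, where 5.84% of all genes were, and the median log2 fold change was 0.22. Of the 6 named above, Gbp2 was not among them (unadjusted p = 0.0694 in edgeR) and the other 5 were. In that fit 1 member, Stat2, was lower (-0.51, unadjusted p = 0.0176 in edgeR). The share of all genes lower in it is not given here, so this count has no background beside it.

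In brain, 32 of the 36 members passed the filter on low counts among 14806 genes. Zbp1, Oas1a, Oasl1 and Mx1 did not, with 0 to 16 counts in any brain library. No member had an adjusted p under 0.05 by edgeR's quasi-likelihood test, nor did any other gene (0% of all). At an unadjusted p under 0.05, 2 members were higher (6.25%) and 0 lower, where 10.0% of all genes were higher and 10.0% lower, so that the members' shares lay below those of all genes. DESeq2 called 1 member, Ifit1, at an adjusted p of 0.0295, among 540 of 20018 genes, and had 2 members higher and 0 lower at an unadjusted p under 0.05, where 6.77% of all genes were higher. The log2 fold change was above 0 for 23 of the 32 members (71.9%, against 49.7% of all genes), with a median of 0.16.

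The 2 members were Ifit1 and Ifit3, neighbours on chromosome 19 that both carry 2 ISRE cores in the stretches printed above. Ifit1 (chr19:34640871-34650009, plus strand) had 4.04, 3.84 and 4.45 normalized CPM in control brain and 8.59, 12.9 and 5.48 in heated brain. Each heated brain lay above each control, heated brain 3 by the least, and the log2 fold change was 1.13 ± 0.30 (unadjusted p = 0.00423 and adjusted p = 0.170 in edgeR). Over the other settings its adjusted p lay between 0.0295 and 0.541, and without heated brain 2 its log2 fold change was 0.77. Ifit3 (chr19:34583531-34588731, plus strand) had 10.1, 14.5 and 10.9 in control brain and 21.9, 29.5 and 12.4 in heated brain, a log2 fold change of 0.85 ± 0.29 (unadjusted p = 0.0154 and adjusted p = 0.179 in edgeR). Heated brain 3 lay inside the control range there. Without heated brain 2 the log2 fold change of Ifit3 was 0.54 (unadjusted p = 0.0789 in edgeR), and without brain control 1 its unadjusted p was 0.0628 in edgeR. Reads of Ifit3 and its close copy Ifit3b may not be separable. Ifit3b had 6.17, 6.28 and 5.26 in control and 10.3, 11.5 and 7.27 in heated brain. Ifit2, the third of the family, had 16.1, 17.2 and 18.3 against 20.8, 21.7 and 14.3, a log2 fold change of 0.14 ± 0.17.

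Isg15 was the only other member with no overlap between the groups in brain. It had 1.78, 2.27 and 2.35 in control and 2.40, 5.20 and 2.64 in heated brain, with heated brain 2 far above the rest and a log2 fold change of 0.68 ± 0.35 (unadjusted p = 0.0796 in edgeR). Ifit1 and Isg15 made 2 of 32 members (6.25%) with every heated brain above every control, where 12.9% of all genes had that order. In 0 members was the order reversed, as it was in 1774 of the 14806 genes.

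The transcription factors showed no separation of the groups in brain. Irf7 had 2.95, 3.05 and 2.67 in control and 3.14, 4.03 and 2.55 in heated brain, a log2 fold change of 0.17 ± 0.26. Irf1 had 8.64, 7.85 and 7.53 against 6.92, 8.15 and 6.61 (-0.15 ± 0.18), and Irf9 had 10.8, 9.08 and 12.3 against 10.7, 10.2 and 9.82 (-0.07 ± 0.17). Stat2 had 24.7, 19.2 and 24.9 against 20.7, 26.2 and 25.5 (0.07 ± 0.15). The groups overlapped for all 4 genes, and none had an unadjusted p under 0.05.

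The other brain members lay between -0.40 ± 0.22 for Igtp and 0.90 ± 0.59 for Ifi44, the latter from 4 to 18 counts a library. Rtp4 (0.76 ± 0.44), Mx2 (0.62 ± 0.32) and Iigp1 (0.55 ± 0.36) followed Ifi44, and in each of the 3 heated brains 1 and 2 lay above all controls and heated brain 3 did not. Gbp3 (0.46) stood above Gbp6 (0.30), Gbp2 (-0.05) and Gbp7 (-0.07). Usp18 (0.41), Rsad2 (0.41), Xaf1 (0.26), Oasl2 (0.22), Ifi27 (0.20), Trim30a (0.18), Dhx58 (0.16), Ifi35 (0.13), Irgm1 (0.13), Bst2 (0.12) and Parp14 (0.04) lay above 0. Ddx58 (-0.01), Irgm2 (-0.07), Ifih1 (-0.15) and Lgals3bp (-0.36) lay below 0.

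Heated brain 2 was the highest of all 6 brains for 23 of the 32 members, where it was the highest for 21.9% of all genes. Heated brain 3 was the lowest of the 3 heated brains for 27 of the 32, where it was the lowest for 35.4% of all genes, and the highest of the 6 for none. The median deviation of the members from the control mean was 0.21, 0.40 and -0.20 in heated brains 1, 2 and 3 and 0.02, -0.05 and 0.01 in the controls, while over all genes it lay between -0.01 and 0.01. Without heated brain 3, 7 of 33 members tested were higher at an unadjusted p under 0.05, where 9.66% of all genes were, and the median log2 fold change was 0.32. Without heated brain 2 it was 1 member, where 4.85% of all genes were higher, and a median of 0.03. Without brain control 1 it was also 1 member, where 5.12% of all genes were higher.

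**Figure D5:**
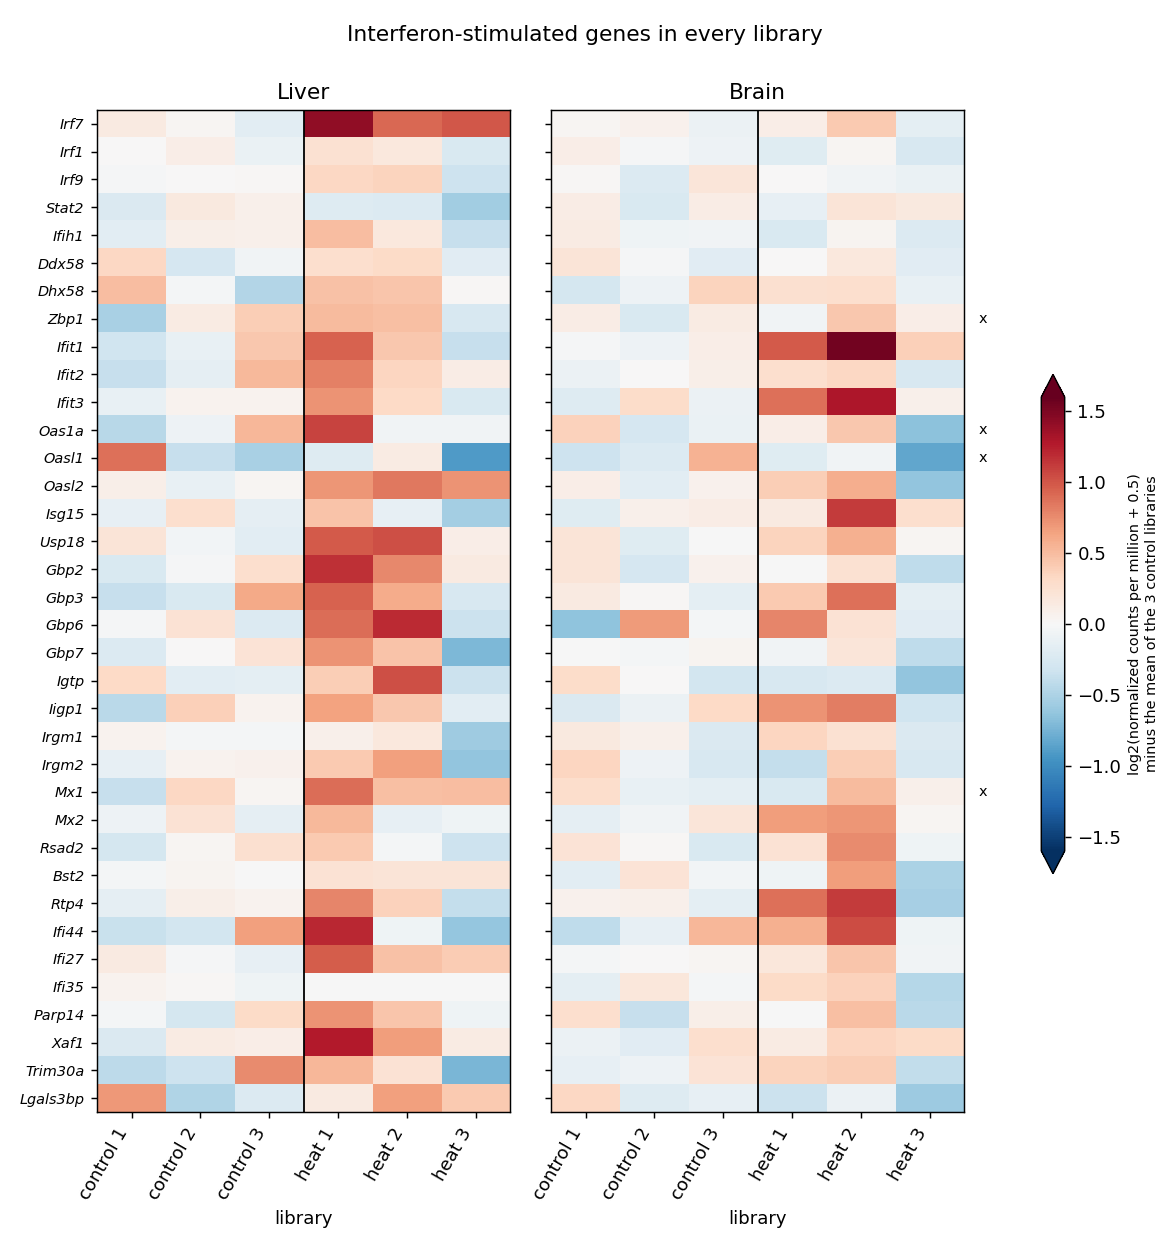
Each of the 36 members (rows, by role) in each liver and brain library (columns), coloured by log2 of normalized CPM plus 0.5 minus the mean of the 3 control libraries of that tissue, with x marking members below the count filter in brain. Heat stress columns 1 and 2 are mostly red or pale, and heat stress column 3 is mostly blue or pale in both tissues apart from Irf7, Oasl2, Mx1, Ifi27 and a few others in liver.

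T cell and NK cell markers summed to 8.57, 9.34 and 6.72 in control brain and to 16.9, 11.6 and 23.9 in heated brain. Cd4 made up most of the difference in these sums, with 4.59, 5.50 and 3.16 in control and 13.6, 5.37 and 18.7 in heated brain. The other tested marker of the list, Lck, had a log2 fold change of 0.90 (unadjusted p = 0.0186 in edgeR), and the remaining 13 were below the count filter, at 0 to 23 counts a library. Neutrophil markers summed to 6.10, 12.6 and 8.34 in control brain and to 10.2, 35.5 and 9.26 in heated brain, with the highest sum in heated brain 2, where most members were highest too, and the defining marker Ly6g at 0 in all 6. B and plasma cell markers were also highest in heated brain 2, with a sum of 5.55 against 1.48 to 2.74 in the other 5. Of the 6 endothelial markers tested 6 were lower in heat at an unadjusted p under 0.05, as were 10.0% of all genes, and their list summed to 225, 114 and 131 in control and 75.9, 94.2 and 73.5 in heated brain. Choroid plexus markers summed to between 1257 and 2502 in control and between 263 and 1137 in heated brain, lowest in heated brain 3. The summed markers of macrophages and microglia overlapped between the groups, between 488 and 644 in control and between 541 and 615 in heated brain. Of the 11 tested, Aif1 (0.77) and P2ry12 (0.46) were higher at an unadjusted p under 0.05 (18.2%, against 10.0% of all genes). Csf1r (-0.56) was lower (9.09%, against 10.0%). The groups of these genes did not overlap, an order found higher in heat in 12.9% of all genes and lower in 1774 of 14806. The part of these cells in the values of the interferon-stimulated genes was not tested.

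The heat effect was compared between the tissues for each member in a fit of all 12 libraries, with no term for mice that may have given both tissues. No member differed at an adjusted p under 0.05 by edgeR's quasi-likelihood test, where 0% of all genes did with a larger effect in liver and 0.00632% with a larger effect in brain. The smallest adjusted p of a member was 0.516. At an unadjusted p under 0.05 the count was 1 member of 36, Irf7, against 3.73% of all genes with a larger value in liver and 5.91% with a larger value in brain. These shares are from edgeR. DESeq2 also gave 1 member, and its share over all genes is not given here. For Irf7 the liver effect exceeded the brain effect by 0.95 ± 0.30 on the log2 scale (unadjusted p = 0.00693 in edgeR). Gbp2 followed with 0.85 ± 0.42 and Igtp with 0.84 ± 0.46. At the other end Isg15 stood at -0.72 ± 0.45. For Ifit1, which led in brain, the liver effect minus the brain effect was -0.70 ± 0.50 (unadjusted p = 0.186 in edgeR), from 0.43 ± 0.35 in liver and 1.13 ± 0.30 in brain.

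The rest of the interferon pathway was read from lists of its ligands, receptors, signalling proteins and other induced genes. Of 20 interferon genes, 16 had no count in any liver library and 18 none in any brain library, and none passed the filter. Ifng had 3 counts in 1 control liver and 2 in 1 heated liver, and Ifnb1 had 1 count over the 6 livers. At these depths a difference in the ligands was not detectable. All 5 tested receptor genes had log2 fold changes above 0 in liver, where Ifnar1 had 31.4, 30.2 and 32.1 in control and 39.4, 38.4 and 40.1 in heated liver (0.33 ± 0.15, unadjusted p = 0.0520 in edgeR), and 1 of 5 did in brain. Of 9 JAK-STAT genes tested in liver, 1 was higher at an unadjusted p under 0.05 (11.1%, against 2.97% of all genes). It was Socs3, a feedback inhibitor of cytokine signalling, with 4.39, 5.06 and 3.63 in control and 7.52, 15.3 and 12.1 in heated liver (1.41 ± 0.29, unadjusted p = 6.16e-04 and adjusted p = 0.280 in edgeR). In brain 0 of 9 were higher, against 10.0% of all genes, and 2 were lower (22.2%, against 10.0%), Jak1 (-0.33) and Stat3 (-0.42). Among 16 sensing and adaptor genes in liver 0 had an unadjusted p under 0.05, and among 18 in brain Ticam1 (-0.54) and Irf2 (-0.33) were lower (11.1%, against 10.0% of all genes).

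Of 80 further interferon-induced genes tested in liver, 9 were higher at an unadjusted p under 0.05 (11.2%, against 2.97% of all genes) and 0 lower, and 59 had a log2 fold change above 0, with a median of 0.18. None had an adjusted p under 0.05 by edgeR. The chemokine Cxcl9, which attracts T cells, had 8.84, 11.2 and 19.8 in control and 72.2, 25.6 and 22.8 in heated liver (1.61 ± 0.48). Apol9a had 39.2, 34.0 and 31.5 in control and 77.4, 73.2 and 48.7 in heated liver (0.93 ± 0.21), and its close copy Apol9b had a log2 fold change of 0.69 ± 0.20, although reads of these 2 may not be separable. The immunoproteasome subunit Psmb8 (0.49), Cxcl10 (0.81), Shisa5 (0.46), Tgtp1 (1.43), Gbp10 (1.17) and Gbp11 (1.02) made up the 9. Heated liver 3 was the lowest heated liver for all 9. In brain, 62 of these genes were tested, 2 were higher (Ifit3b at 0.71 and Ifi27l2a at 1.64, 3.23% against 10.0% of all genes) and 7 lower (11.3%, against 10.0% of all genes), namely Adar, Ly6e, Pml, Znfx1, Helz2, Rnf213 and Tap2. The median was 0.02. Ifi27l2a had 1.65, 1.83 and 2.02 in control and 3.51, 11.3 and 2.36 in heated brain, where heated brain 2 again stood highest.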

How the data were processed

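RNA of brain and liver was sequenced, and the authors deposited a table of whole-number read counts per gene. The study describes the counting in more than one way, as Trimmomatic 0.39, HISAT2 2.2.1 and featureCounts (Subread 2.0.1) on mm10 per the submitters' processing notes and as Tophat2 with HTSeq elsewhere. The annotation, the use of strand and the treatment of reads that map to several genes are not given in the sources used here. The deposited tables of the authors' own comparisons (log2 fold changes and p-values) were not used.

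Counts were scaled by TMM factors and fitted with edgeR 4.0.16 (quasi-likelihood test, R 4.3.3) to the 6 libraries of a tissue without covariates, and to all 12 libraries for tissue and interaction terms. Genes were kept by edgeR's filter (minimum count 10, minimum total 15). Test p-values were adjusted over all genes tested, and the threshold was 0.05. Alternatives were other size factors, DESeq2 1.42.0, a single fit of all libraries, no filter, a stricter filter (CPM of 1 in 3 libraries), a replicate block, leaving out each library, and removing or modelling skeletal muscle transcripts.

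The 36 members, the marker and pathway lists and the genes to name were chosen with earlier results of these data known. By rule, genes given with every library's value were Irf1, Irf7, Irf9, Stat2 and members with an unadjusted p under 0.05. One pathway gene of that rule is not reported here. Bst2, Mx1, Isg15, Oasl1 and Ifit2 were added after their values were seen, as were the examples from the pathway lists other than those at an unadjusted p under 0.05. No sequence was given for Dhx58, Zbp1, Usp18, Gbp6, Iigp1, Mx1, Mx2, Rtp4, Ifi27 and Parp14. Promoter sequences were from RefSeq, and gene positions from GENCODE on GRCm38.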

Additional observations from a re-analysis of the deposited data

How the results depend on the processing

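With 3 libraries a group, 1 library could decide a count. In liver the number of members at an adjusted p under 0.05 was 0, and 1 (Irf7) with DESeq2, with all 12 libraries in a single fit, with both libraries holding muscle transcripts removed and with the muscle score as a covariate, and 0 to 1 when single libraries were left out. Members higher at an unadjusted p under 0.05 ranged from 2 (without heat stress 1) to 13 (without heat stress 3), members lower from 0 to 1, and the median log2 fold change from 0.0814 to 0.54. With single liver libraries left out, 1.78% to 7.11% of all genes were higher. From 414 of 12655 to 1614 of 12519 genes had an unadjusted p under 0.05 in either direction. Removing both muscle libraries gave 1 member lower (Stat2) and a median of 0.22, and the covariate also gave 1 lower. The shares of all genes lower in these fits are not given here, so the counts cannot be set against them. In brain DESeq2 gave 1 member at an adjusted p under 0.05 (Ifit1). Leaving out single brain libraries gave 1 to 7 members higher, 0 to 1 lower and a median of 0.0278 to 0.32. In these brain fits 4.85% to 13.6% of all genes were higher. From 1655 of 15005 to 4027 of 14979 genes had an unadjusted p under 0.05 in either direction, so the share over all genes moved too. The members whose heat effect differed between tissues at an unadjusted p under 0.05 numbered 1 (1525 of all 15824 genes), against 2 with no filter (1672 of 20600) and 4 with a replicate block (1471 of 15824). They numbered 1 to 6 when single libraries were left out (from 988 of 16109 to 3053 of 16120 of all genes). In brain the sign turned for Stat2 (-0.0416 without control 2, range to 0.17), Irf9 (0.0376 without control 3, range from -0.18) and Irf7 (-0.0228 without heat stress 2, range to 0.31). In liver it turned for Irf1 (-0.0431 without heat stress 1, range to 0.19). The cause was not tested. The tissue difference in controls stayed at 31 to 33 members lower and 1 higher in brain in every setting. Over all genes, the main edgeR fit called 0 at an adjusted p under 0.05 in either tissue, and DESeq2 63 in liver and 540 in brain. The numbers of all genes called in the other fits are not given here, so the member counts of those fits have no background beside them. Same-numbered control and heat stress libraries did not deviate together (correlations of -0.29, 0.21 and -0.20 in brain and -0.58, -0.51 and 0.04 in liver), so the numbers were not used as pairs. Same-numbered brain and liver libraries correlated at 0.25, 0.23 and 0.095 for the control mice (0.036, -0.12 and 0.014 for the heated ones). Differently numbered ones lay between -0.26 and 0.048 for the control mice, below each same-numbered pair, and between -0.15 and 0.13 for the heated ones. Whether same-numbered libraries share a mouse was not tested. Pairing same-numbered libraries by a block left 33 members lower and 1 higher in control brain. With a replicate block 4 members were higher in liver (1.56% of all genes) and 2 in brain (9.84%) at an unadjusted p under 0.05, Irf7 in liver had an adjusted p of 0.40 and Ifit1 in brain 0.161 in edgeR. Low counts limit Mx1, Oas1a and Ifi44.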
